A study of Mus musculus with 23 samples.

Results

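DNA methylation of primary mouse myotubes on day 2 of differentiation was compared with that of the proliferating myoblasts of the same cultures. Of the 23 libraries of the series, 6 enter the comparison: day 2 myotubes and myoblasts of cultures 21, 27 and 26, with the culture as a block. The regions compared are the 49684 of 173430 fragments that are shorter than 2000 bp and lie on chromosomes 1 to 19. All cells are muscle precursor cells of male C57BL/6J mice. The myotubes had been placed at confluence on matrigel and kept for 2 days in DMEM with 2% horse serum. The myoblasts were sampled at passage 8 to 10, in Ham's F-10 with 20% FBS and bFGF on collagen. The labels do not say how many animals gave a culture. Day 1 and day 4 myotubes of the same 3 cultures are set beside them where they bear on a result.

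Skeletal myoblasts are the dividing offspring of muscle stem cells. When growth factors are withdrawn they leave the cell cycle, switch on muscle genes under Myod1, Myog and the MEF2 factors, and fuse into multinucleated myotubes. Methylation of cytosine in CG pairs is laid down by Dnmt3a and Dnmt3b, copied at replication by Dnmt1 and oxidised by the Tet enzymes. It is usually low at CpG islands, the CG-rich stretches at many promoters, and high elsewhere and over transposable elements.

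AIMS-seq reads methylation through a pair of enzymes that share the site CCCGGG. SmaI first removes unmethylated sites and leaves blunt ends. XmaI then opens the methylated ones, and adaptors join to its cohesive ends. A fragment is amplified when the sites at both of its ends were methylated, so its read count goes up with the molecules methylated at both ends, and is not a percentage of methylation. A lower count cannot tell less methylation at 1 end from less at both. Myotube cultures also hold cells that have not fused, and a change in some cells cannot be told apart from a change in cell mixture.

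The fragments are best seen as sequences. Shown here are the first 180 bases of 3 fragments with more reads in day 2 myotubes and of 2 with fewer, and 1 fragment with fewer in full with the sites at both ends. They are among the 12 with the smallest p and were picked for their contrast in base composition after their values were known. They are the plus strand of mm9, 5′ to 3′. Capitals mark the CCCGGG sites and every CG pair, the only pairs that are commonly methylated. Positions include the whole sites and so begin 3 bases before the fragment as deposited.

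Yme1l1, exon, chr2:23043127-23043306: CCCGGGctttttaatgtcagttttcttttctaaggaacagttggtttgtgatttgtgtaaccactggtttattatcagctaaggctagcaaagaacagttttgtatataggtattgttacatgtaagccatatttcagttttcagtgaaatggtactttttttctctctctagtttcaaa
Fhit, intron, chr14:10760893-10761072: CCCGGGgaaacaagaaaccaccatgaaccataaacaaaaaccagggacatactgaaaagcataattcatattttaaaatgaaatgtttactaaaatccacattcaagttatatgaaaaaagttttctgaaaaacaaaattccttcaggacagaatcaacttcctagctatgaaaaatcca
Ano3, intron, chr2:110764060-110764239: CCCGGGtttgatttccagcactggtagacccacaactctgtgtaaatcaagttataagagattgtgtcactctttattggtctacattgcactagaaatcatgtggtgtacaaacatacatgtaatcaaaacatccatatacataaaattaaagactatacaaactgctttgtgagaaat
Gabbr2, intron, chr4:47002884-47003063: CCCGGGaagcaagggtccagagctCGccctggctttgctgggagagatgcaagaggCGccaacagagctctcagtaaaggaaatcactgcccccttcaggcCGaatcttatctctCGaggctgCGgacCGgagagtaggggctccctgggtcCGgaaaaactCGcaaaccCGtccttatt
Cyp26b1, promoter, chr6:84539210-84539389: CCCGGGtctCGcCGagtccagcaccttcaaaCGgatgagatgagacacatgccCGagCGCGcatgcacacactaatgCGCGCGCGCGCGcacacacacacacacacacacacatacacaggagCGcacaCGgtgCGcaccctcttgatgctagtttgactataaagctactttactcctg
Mcf2l, intron, chr8:12965968-12966262: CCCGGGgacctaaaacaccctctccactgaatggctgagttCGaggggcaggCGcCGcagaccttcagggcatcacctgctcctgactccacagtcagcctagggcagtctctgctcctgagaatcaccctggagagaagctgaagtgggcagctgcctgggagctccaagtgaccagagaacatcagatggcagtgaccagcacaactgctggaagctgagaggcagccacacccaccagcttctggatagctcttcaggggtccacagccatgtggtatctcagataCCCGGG

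The 3 sequences with more reads in day 2 myotubes are rich in A and T. Their printed stretches are 33.9% (Yme1l1), 31.7% (Fhit) and 35.0% (Ano3) GC, and each holds 1 CG pair, that of the site itself. The Gabbr2 stretch holds 10 CG pairs at 58.9% GC and the Cyp26b1 stretch 16 at 57.2% GC. The 295 bases of Mcf2l hold 5 CG pairs at 59.3% GC. Base composition is the thread through the results below.

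Day 2 libraries held 14515828, 12742081 and 9342841 reads in cultures 21, 27 and 26, and myoblast libraries 11041705, 9673946 and 7683633. Day 2 was thus the deeper library of every culture. The fragments compared took 92.4% to 95.2% of these reads. Their median length is 231 bp. A promoter, taken as 2000 bp before to 500 bp after a gene start, is touched by 16818 of them. A further 4344 touch an exon and 9657 only an intron, and 18865 lie outside genes. CpG islands are overlapped by 14732 and repeats by 21370. With libraries thinned to 7184895 reads, 14437 ± 1508 fragments had 5 or more reads in day 2 myotubes and 15709 ± 1548 in myoblasts (SD, n = 3 each; exact sign-flip permutation p = 0.75, 2-sided).

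The cultures differed from one another more than the stages did. Over the 15113 fragments with enough reads to test, culture accounted for 70.8% of the sum of squares of log2 CPM (read counts relative to library size, scaled by the TMM method), stage for 11.1% and the remainder for 18.1%. In CpG island fragments culture took 80.6% and stage 8.92%. Over young LINE-1 elements (L1Md), culture took 50% and stage 18.1%. The shares are not scaled for degrees of freedom, of which stage has fewer than culture or the remainder. A stage share alone is thus no measure of a stage effect. The day 2 and myoblast libraries of one culture correlated at 0.984 (culture 21), 0.88 (culture 27) and 0.952 (culture 26), over fragments and on the log2 scale.

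Culture 27 stood apart. Its myoblast library correlated more closely with the day 2 library of culture 26 (0.904) than with its own day 2 library (0.88). Scaled with all 4 stages, the day 2 library of culture 27 correlated at 0.890 with its own myoblasts and 0.834 with its own day 1. It reached only 0.722 with its own day 4, against 0.875 with day 4 of culture 21. The day 1 and day 4 libraries of culture 27 were also far from the day 2 libraries of the other cultures. They correlated at 0.644 and 0.621 with day 2 of culture 21, and at 0.746 and 0.753 with day 2 of culture 26. These values do not show which library of culture 27 is the unusual one. The SD of the log2 ratio of day 2 myotubes to myoblasts was 0.534 in culture 21, 1.66 in culture 27 and 0.713 in culture 26. More than 2-fold differences were seen at 751 fragments upward and 262 downward in culture 21, at 2480 and 4259 in culture 27, and at 654 and 1649 in culture 26. The scaling factor of culture 27 also differed most between stages, at 0.864 in day 2 myotubes and 1.41 in myoblasts. Whether the libraries of culture 27 carry the right labels was not tested. Every ratio of culture 27 below rests on the labels of its day 2 and myoblast libraries. Values are therefore given by culture for the main results. They are also given without culture 27 where it moves the change of a fragment named by rule by more than 1.5 times.

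**Figure D1:**
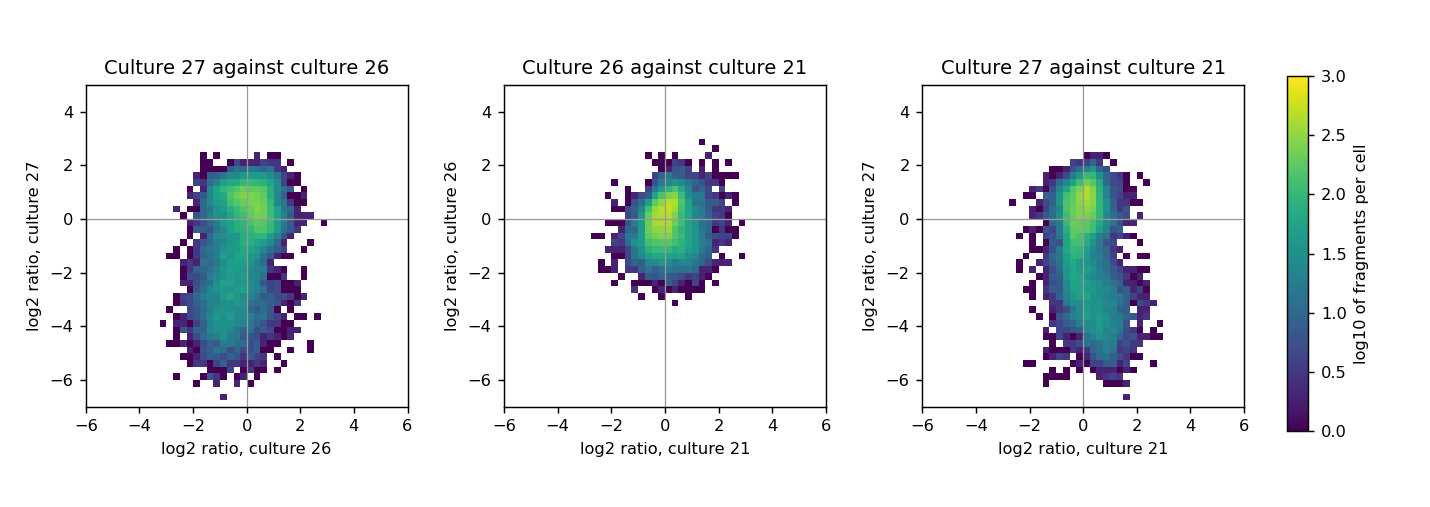
Log2 ratio of day 2 myotubes to myoblasts for 15113 fragments, each culture plotted against another. Both axes are log2 ratios in cells of 0.25, and colour gives the log10 number of fragments per cell. Culture 27 spreads far below 0 (SD 1.66), while cultures 21 and 26 keep to a narrow cloud (SD 0.534 and 0.713).

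No fragment passed the test between day 2 myotubes and myoblasts. edgeR's quasi-likelihood test with the culture as a block called 0 of 15113 fragments higher (0.0%) and 0 lower (0.0%), and the smallest Benjamini-Hochberg adjusted p was 0.743. At an unadjusted p under 0.05 stood 378 fragments with more reads in day 2 myotubes (2.5%) and 367 with fewer (2.43%), 745 in all, close to the share that this threshold lets through where nothing differs. The even split depends on the scaling: edgeR with DESeq2's size factors had 195 with more reads and 435 with fewer, and the length and GC correction described further on had 88 and 327. DESeq2 also called 0, with 382 higher and 839 lower at an unadjusted p under 0.05 and a smallest adjusted p of 0.0536. Without any filter on low counts, 2 promoter fragments were called lower among 26042, those of Apc2, a relative of the Wnt regulator Apc, and Stk4, a Hippo pathway kinase. The Apc2 fragment had 0, 0 and 53 reads in day 2 myotubes of cultures 21, 27 and 26, and 2, 142 and 283 in myoblasts (log2 change -4.29, edgeR adjusted p = 0.00127 in that fit). The Stk4 fragment had 0, 1 and 33 reads in day 2 myotubes, and 6, 139 and 103 in myoblasts (log2 change -3.90, adjusted p = 0.0483). Both were tested in the filtered fit too and had an adjusted p of 0.743 there. Without culture 27 the filtered fit gave Apc2 a log2 change of -2.73 (edgeR adjusted p = 0.0092), and it is among the lower calls described next.

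Without culture 27 the test called 12 fragments higher (0.0793% of 15136) and 12 lower (0.0793%). The spread estimated by the fit fell to a common dispersion of 0.0518 without culture 27, against 0.208 with all 3 cultures. The 12 lower ones lie at 55.2% to 59.8% GC, and all 12 were also lower in culture 27, where fragments of 55 to 60% GC had a median log2 ratio of -0.694 in any case. They include the promoter of Baiap2l2, which codes for a membrane-bending protein (log2 change -1.29, adjusted p = 0.00124), the Gabbr2 intron (-2.04, adjusted p = 0.0092) and the promoter of the ribosomal protein gene Rps18 (-2.0, adjusted p = 0.0352). They also include an exon of Scrt1, a transcriptional repressor of neurons, with 1 and 26 reads in day 2 myotubes of cultures 21 and 26, and 1 and 161 in myoblasts.

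The 12 higher ones run from 31.3% to 64.3% GC, 8 carry a repeat, none touches a promoter or an island, and 6 were higher in culture 27 as well. The Fhit intron (1.04, adjusted p = 0.0337) and an exon of Piwil4, a partner of piRNAs in the mouse germ line (0.93, adjusted p = 0.0268), are among those 6. An exon of Arid5a, which codes for a nucleic acid binding protein, was among the others: its log2 ratio was 1.62 in culture 21, -4.56 in culture 27 and 2.45 in culture 26. After each library was corrected for fragment length and GC content, the fit without culture 27 called 0 fragments. Most of the 12 in each direction were not followed in that fit. Of the lower ones, Gabbr2 (-1.79), Baiap2l2 (-1.13) and the fragment between genes on chromosome 8 (73327975 to 73328293, -2.11) kept most of their size. Of the higher ones, Fhit had 0.23. These are only part of the calls that are named below. The Mcf2l intron (lower) and a fragment between genes on chromosome 6 (4538943 to 4539437, higher) are not given for that fit. No difference between the directions can be drawn from these few. The fit without culture 27 has 1 residual degree of freedom and borrows its spread from the other fragments.

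Described by direction alone, 3135 of the 15113 fragments (20.7%) had a higher level at day 2 in all 3 cultures and 2135 (14.1%) a lower one. Over 2-fold in every culture, the counts were 2 upward (0.0132%) and 41 downward (0.271%). The 2 upward are the Yme1l1 exon and a fragment between genes on chromosome 7 (61052217 to 61052582) that carries an L1_Mus2 element. Of the 41 downward, 18 touch a promoter (43.9%, against 15.1% of all fragments tested) and 12 overlap a CpG island (29.3%, against 3.81%). Their median GC content was 56.9%, against 49.7% over all fragments tested. A repeat was present in 10 of the 41 (24.4%), against 46.2% of all tested, and in 7 of these it is an L1Md_A element. Many of the 41, islands and promoters among them, have only a few reads in culture 21, where single reads decide the 2-fold limit. There the Apc2 promoter fragment had 0 reads in day 2 myotubes and 2 in myoblasts, and the Abcc10 island fragment 0 and 4. At such fragments the fall rests mainly on cultures 27 and 26. Some of the 41 also passed the read filter mainly on their myoblast reads. The Apc2 fragment, with 0, 0 and 53 reads in day 2 myotubes of cultures 21, 27 and 26 and 2, 142 and 283 in myoblasts, is an example. How far the filter shapes the number downward and its promoter and island shares was not tested.

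Among the 41 are 3 genes of the lists described further on. The promoter of Smad6, an inhibitor of BMP signalling, had 0, 3 and 18 reads in day 2 myotubes of cultures 21, 27 and 26, and 5, 66 and 61 in myoblasts (log2 change -3.24 ± 0.91, SE). The promoter of Hes7, a Notch target and oscillator of the segmenting mesoderm, had 10, 13 and 39 reads in day 2 myotubes, and 19, 109 and 89 in myoblasts (-1.85 ± 0.57). An intron fragment of Dock1, a Rac activator needed for myoblast fusion in the mouse, had 17, 26 and 83 reads in day 2 myotubes, and 28, 137 and 189 in myoblasts (-1.57 ± 0.46). The counts are low in culture 21 at all 3, and none of the 3 was called (edgeR adjusted p = 0.743 each).

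The shares of reads show how the whole libraries moved. Fragments under 40% GC took 4.05%, 4.91% and 3.78% of reads in day 2 myotubes of cultures 21, 27 and 26, and 3.02%, 3.88% and 2.61% in myoblasts. The day 2 share was higher in every culture, by 1.08 ± 0.0861 percentage points (SD, n = 3), and the groups overlap by 1 library. Fragments of 40 to 45% GC took 18.8%, 20.3% and 17.7% in day 2 myotubes and 15.8%, 17.7% and 13.2% in myoblasts, a mean difference of 3.40 points, by 3.00 in culture 21, 2.65 in culture 27 and 4.55 in culture 26.

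At the other end, fragments of 55 to 60% GC took 6.98%, 5.37% and 8.70% in day 2 myotubes, and 9.23%, 8.94% and 12.8% in myoblasts. The 3 day 2 libraries all lie below the 3 myoblast libraries, with a mean difference of -3.31 ± 0.955 points. At 60% GC or more the cultures split: the difference was 0.0371 points in culture 21, -1.44 in culture 27 and -0.827 in culture 26. An exact sign-flip permutation test over 3 pairs, 2-sided, cannot give less than 0.25, which is the p of each GC class under 60% and of the islands, and 0.5 at 60% or more. No share can thus pass 0.05.

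**Figure D2:**
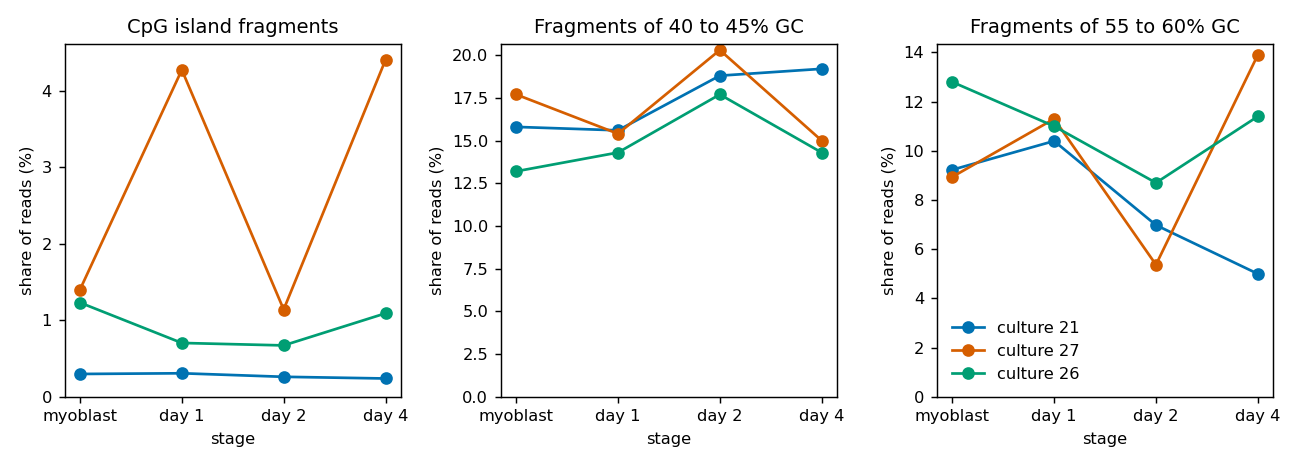
Share of reads (%, vertical axis) in CpG island fragments and in fragments of 40 to 45% and 55 to 60% GC, by stage and culture, 1 library per point. At day 2 the 40 to 45% class is above the myoblast value in each of the 3 cultures and the 55 to 60% class below it, while island reads of culture 27 go from 1.40% in myoblasts over 4.27% at day 1 and 1.14% at day 2 to 4.40% at day 4.

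The shift is graded along GC content. The median log2 ratio of fragments under 40% GC was 0.416, 0.630 and 0.670 in cultures 21, 27 and 26. At 45 to 50% GC it was 0.0300, 0.337 and 0.188, and at 55 to 60% GC -0.119, -0.694 and -0.653. At 60% or more it was 0.145, -2.24 and -0.632. At 50 to 55% GC it was -0.15, 0.128 and -0.278. Up to that class culture 21 thus fell by about as much as culture 27. From 55% GC up, culture 21 did not fall further, while both classes of cultures 27 and 26 lay below their medians at 50 to 55%. Of the 664 tested fragments under 40% GC, 415 were higher in all 3 cultures (62.5%) and 7 lower (1.05%). Of the 1466 at 60% GC or more, 12 were higher in all 3 (0.819%) and 474 lower (32.3%). Both can be read against 20.7% and 14.1% over all fragments tested.

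Length moved in another way in each culture. Fragments of 300 to under 500 bp had a median log2 ratio of 0.0622 in culture 21, 0.804 in culture 27 and -0.187 in culture 26. Those of 1000 to under 2000 bp had 0.0237, -0.299 and 0.299. The length trends thus differed in direction, whereas the 55 to 60% GC class had a lower median than the class under 40% in each of the 3 cultures. Correcting each library for length and GC left 415 fragments at an unadjusted p under 0.05, against 745 without the correction, and 0 called. The length correction alone gave 935. As 745 is already near the share that this threshold lets through, these counts do not show what the correction removed. The GC trend was found on these libraries, and its part in each single difference was not tested.

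**Figure D3:**
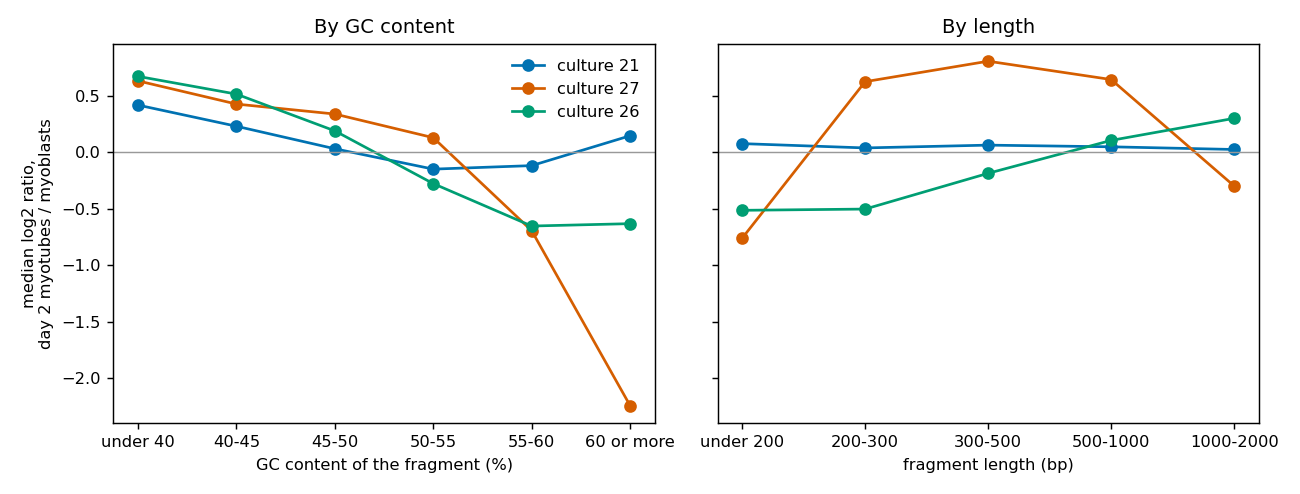
Median log2 ratio of day 2 myotubes to myoblasts (vertical axis) by GC content (%) and by fragment length (bp), 1 line per culture. Medians fall from 0.416, 0.630 and 0.670 under 40% GC to -0.119, -0.694 and -0.653 at 55 to 60% GC in cultures 21, 27 and 26, while the 3 length curves differ in shape.

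CpG island fragments are few among those with reads, as methylated islands are rare. They took 0.261%, 1.14% and 0.671% of reads in day 2 myotubes of cultures 21, 27 and 26, and 0.298%, 1.40% and 1.23% in myoblasts. The mean was 0.690 ± 0.439% in day 2 myotubes and 0.975 ± 0.592% in myoblasts (SD, n = 3 each). The share was lower at day 2 in every culture, with differences of -0.0371, -0.257 and -0.559 points. With libraries thinned to 7184895 reads, 264, 452 and 674 island fragments had 5 or more reads in day 2 myotubes, against 285, 812 and 746 in myoblasts (exact sign-flip p = 0.25, the smallest possible).

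Only 576 of the 14732 island fragments had enough reads to test, which keeps those that were methylated in at least some libraries. Some passed mainly on their myoblast reads, such as the Stk4 fragment, with 0, 1 and 33 reads in day 2 myotubes and 6, 139 and 103 in myoblasts. How far this choice shapes the counts by direction was not tested. Of the 576, 137 were lower in all 3 cultures (23.8%, against 14.1% of all tested) and 9 higher (1.56%, against 20.7%). Their median log2 change was -0.584, against 0.0256 over all fragments tested. By the median log2 change over all 3 cultures, islands also stood lower than other fragments of like GC content. Within 55 to 60% GC the median was -1.28 over 189 island fragments and -0.420 over 1728 others, and within 50 to 55% GC it was -0.569 over 162 and -0.122 over 3724. In culture 21 the gap was small, at -0.134 for islands and -0.118 for others within 55 to 60% GC. In culture 27 islands stood higher than others at 40 to 45% GC (0.637 against 0.423) and about level at 60% or more (-2.21 against -2.24). Only culture 26 had islands lower by a clear gap in each GC class from 40% up.

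Promoter fragments took 10.5%, 11.5% and 11.4% of reads in day 2 myotubes and 11.3%, 12.1% and 12.8% in myoblasts, lower at day 2 in each culture, with a mean difference of -0.932 ± 0.368 points. Exon fragments took 15.4 ± 1.28% in day 2 myotubes and 16.9 ± 1.38% in myoblasts, again lower in each culture. Fragments between genes took 38.7 ± 1.24% in day 2 myotubes and 37.0 ± 2.13% in myoblasts, higher in each culture. The exact p was 0.25 for each of these 3 classes.

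IAP, SINE and older LINE fragments took a larger share at day 2 in every culture. IAP elements, a family of endogenous retroviruses kept methylated in most mouse tissues, took 1.56%, 1.5% and 1.42% of reads in day 2 myotubes, and 1.29%, 1.48% and 1.02% in myoblasts. Of 282 tested IAP fragments, 122 were higher in all 3 cultures (43.3%, against 20.7% of all tested) and 9 lower, with a median log2 change of 0.338. SINE fragments took 20.0 ± 0.723% in day 2 myotubes and 18.9 ± 0.783% in myoblasts, higher in each culture, and LINE fragments other than L1Md 4.58 ± 0.291% and 4.17 ± 0.451%. LTR elements other than IAP took 14.8%, 14.5% and 14.5% in day 2 myotubes of cultures 21, 27 and 26, and 13.8%, 14.9% and 12.7% in myoblasts, lower at day 2 in culture 27 alone.

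L1Md elements, the LINE-1 copies young enough to move in the mouse genome, did not share a direction. They took 3.27%, 2.63% and 3.66% in day 2 myotubes, and 3.20%, 4.31% and 3.77% in myoblasts. Their 1834 tested fragments had medians of 0.172 in culture 21, -1.55 in culture 27 and -0.351 in culture 26. The low median over all 3, -0.659, rests on culture 27. Reads of such repeats can be shared among near-identical copies, so single copies are uncertain.

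The 12 fragments with the smallest p among those that moved one way in all 3 cultures carry the GC contrast too: the 6 with more reads in day 2 myotubes lie at 29.1% to 40.2% GC and the 6 with fewer at 53.5% to 58.7% GC. None was called, and edgeR's adjusted p was 0.743 for each. With libraries corrected for length and GC content, the 6 with more reads had log2 changes of 0.12 to 0.38, and the 6 with fewer had -2.98 to -0.74. Values below are CPM after TMM scaling in cultures 21, 27 and 26.

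Yme1l1 codes for a protease of the inner mitochondrial membrane. Its exon fragment (chromosome 2, 23043130 to 23043702, 573 bp, 30.7% GC) had 67.8, 92.2 and 77.6 CPM in day 2 myotubes, against 32.0, 40.2 and 30.4 in myoblasts, a log2 change of 1.21 ± 0.29 (SE; unadjusted p = 0.00476). All day 2 libraries lie above all myoblast libraries. At day 1 it stood at 34.1, 44.0 and 58.9 CPM and at day 4 at 72, 44.4 and 65.8, scaled with all 4 stages; on that scale day 2 had 58.5, 95.1 and 78.3 and myoblasts 28.3, 48.0 and 32.9. Culture 27 was thus near its myoblast level again at day 4. Corrected for length and GC, the change was 0.14 over all 3 cultures and -0.03 without culture 26.

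Fhit codes for a hydrolase of diadenosine polyphosphates. Its intron fragment (chromosome 14, 10760896 to 10761629, 734 bp, 31.3% GC) had 149, 372 and 296 CPM in day 2 myotubes and 69.8, 141 and 152 in myoblasts, a log2 change of 1.15 ± 0.28, and of 0.15 with that correction. The groups overlap by little, day 2 of culture 21 lying just under the myoblasts of culture 26. An intron fragment of Ano3, a member of the anoctamin family of membrane proteins, overlaps an Lx9 LINE (chromosome 2, 110764063 to 110764712). It had 135, 277 and 89.9 CPM in day 2 myotubes and 81.1, 102 and 32.5 in myoblasts (1.21 ± 0.30, or 0.21 corrected).

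The other 3 lie between genes. The fragment on chromosome 4 (79544025 to 79544639) carries an RLTR27 element and had 107, 198 and 92.4 CPM in day 2 myotubes, against 58.0, 65.3 and 39.4 in myoblasts. All its day 2 libraries lie above all its myoblast libraries. The fragment on chromosome 6 (4538943 to 4539437) carries a B3 SINE and had 560, 640 and 212 CPM in day 2 myotubes, against 308, 270 and 84.2 in myoblasts. The one on chromosome 1 (50020697 to 50021171) had 28.9, 91.1 and 5.43, against 9.30, 28.0 and 2.99. In these last 2 the spread between cultures was wider than the change.

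Of the 6 with fewer reads, the Gabbr2 intron had the smallest p. Gabbr2 codes for a subunit of the GABA-B receptor. The fragment (chromosome 4, 47002887 to 47003350, 464 bp, in a CpG shore) had 0.538, 14.9 and 16.4 CPM in day 2 myotubes and 2.24, 44.9 and 67.8 in myoblasts, a log2 change of -1.88 ± 0.35 (unadjusted p = 0.00128). Corrected for length and GC the change was -1.40. Culture 21 has hardly any reads at either stage. Scaled with all 4 stages, culture 27 had 53.6 CPM in myoblasts, 287 at day 1, 15.4 at day 2 and 269 at day 4.

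The Cyp26b1 promoter did the same. Cyp26b1 breaks down retinoic acid. The fragment (chromosome 6, 84539213 to 84539685, 473 bp, island and shore) had 0.717, 4.30 and 12 CPM in day 2 myotubes and 2.12, 27.8 and 45.4 in myoblasts (-2.10 ± 0.42, unadjusted p = 0.00185; -1.92 corrected). On the scale of all 4 stages, culture 27 had 33.2 CPM in myoblasts, 162 at day 1, 4.43 at day 2 and 119 at day 4. The lower level of culture 27 was thus seen at day 2 and not at the day before it or at day 4.

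The Baiap2l2 promoter (chromosome 15, 79117175 to 79117576, which also touches Pla2g6, a phospholipase gene) had 102, 57.8 and 127 CPM in day 2 myotubes and 214, 159 and 369 in myoblasts (-1.36 ± 0.28). All day 2 libraries lie below all myoblast libraries. An exon of Kif26a, of the kinesin family, had 0.538, 7.35 and 22.6 in day 2 myotubes, against 1.18, 25.1 and 69.4 in myoblasts (-1.56 ± 0.36). The Mcf2l intron fragment had 113, 26.6 and 140, against 223, 66.7 and 322 (-1.17 ± 0.28). The fragment between genes on chromosome 8 (73327975 to 73328293, island and shore, with a MIRc element) had 0.0896, 0.191 and 2.61, against 0.471, 9 and 16.7. In day 2 myotubes it rests on 1, 2 and 25 reads.

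**Figure D4:**
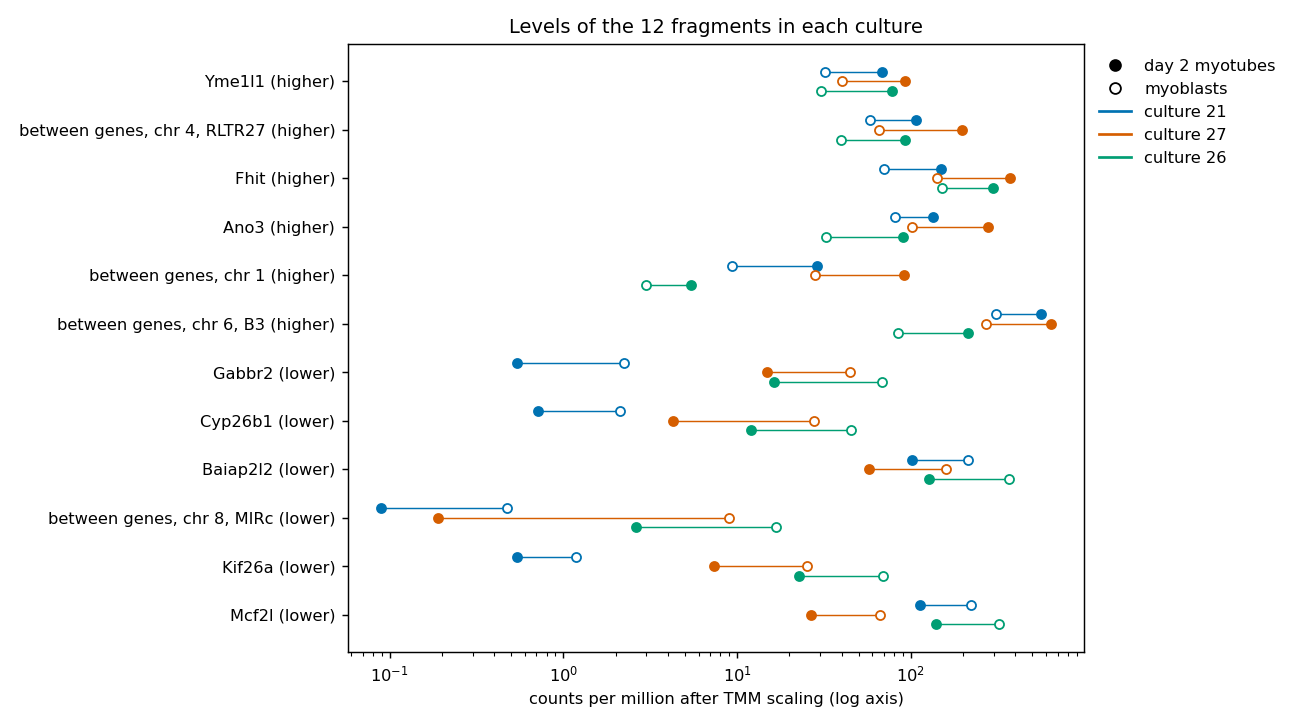
CPM after TMM scaling (log axis) of the 12 fragments with the smallest p among those that moved one way in all cultures, with day 2 myotubes as filled and myoblasts as open points joined within each culture. Each of the 12 moves one way in all 3 cultures, as the choice of these fragments requires; only for Yme1l1, the chromosome 4 fragment and Baiap2l2 do all day 2 points lie on one side of all myoblast points.

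Among 22 genes of the muscle programme and of methylation picked for description, 13 had a fragment with enough reads. None had a called fragment. Myod1, Myog and Cdh15 had fragments with too few reads to test, and Myf6, Tnnt3, Cacna1s, Dnmt1 and Mstn had no fragment among those compared. For each of the others, the fragment with the smallest p is given.

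The Mef2c promoter was the muscle gene with the smallest p. Mef2c codes for a transcription factor that works with the myogenic bHLH factors. The fragment (chromosome 13, 83661913 to 83662523, 611 bp, 36.3% GC, in a shore) had 21.8, 83.4 and 56.4 CPM in day 2 myotubes of cultures 21, 27 and 26, and 13.7, 15.4 and 24.8 in myoblasts, a log2 change of 1.43 ± 0.43 (unadjusted p = 0.0142, edgeR adjusted p = 0.743). Day 2 was higher within each culture, and day 2 of culture 21 fell between the myoblast libraries. The change was 0.95 without culture 27, and with the length and GC correction it was 0.54 (unadjusted p = 0.102), above the p of Acta1 in that fit (0.0517). At day 1 it stood at 12.9, 43.5 and 66.4 and at day 4 at 27.2, 46.1 and 56.1 on the scale of all 4 stages, where myoblasts had 12.1, 18.3 and 26.9.

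The promoter of Acta1, skeletal muscle alpha-actin, moved the other way. It had 4.39, 18.3 and 30.3 CPM in day 2 myotubes and 6.83, 26.9 and 69.7 in myoblasts (-0.81 ± 0.34, unadjusted p = 0.0505). Each culture was lower at day 2, while the groups overlap widely. The promoter of Ckm, muscle creatine kinase, had 7.44, 5.54 and 0.104, against 11.2, 7.97 and 0.125 (-0.52 ± 0.52), with 1 read in each library of culture 26.

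The remaining fragments of muscle genes split between cultures. An exon of Des, the muscle intermediate filament, had 444, 405 and 236 CPM in day 2 myotubes and 391, 216 and 341 in myoblasts (0.18 ± 0.36). An exon of Ttn, the giant sarcomere protein, had 1910, 904 and 920, against 1860, 393 and 949 (0.39 ± 0.37), with log2 ratios of 0.04, 1.2 and -0.05 and a change of 0.01 without culture 27. An exon fragment of Ryr1, which codes for the channel that releases calcium in muscle, had 55.8, 1.34 and 88.9 in day 2 myotubes and 32.4, 49.9 and 248 in myoblasts (-1.71 ± 1.11), with culture 21 higher and the other two lower. The Ryr1 change was -0.36 without culture 27 and -3.33 without culture 21.

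The factors that mark muscle precursors were close to 0 change on average. Pax7, the marker of muscle stem cells, has 5 tested fragments, and the exon fragment with the smallest p had 110, 310 and 53.3 CPM in day 2 myotubes and 119, 196 and 55.4 in myoblasts (0.16 ± 0.30). Myf5, a myogenic bHLH factor of precursors, had 0.717, 16.3 and 3.87, against 0.942, 7.25 and 6.11 (0.08 ± 0.59). Pax3, a relative of Pax7, had 20.2, 6.40 and 10.2, against 19.3, 9.40 and 5.23 (0.15 ± 0.45). The SE was larger than the change in all 3.

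Cdkn1a codes for an inhibitor that helps take myoblasts out of the cell cycle. Its island fragment had 1, 1 and 28 reads in day 2 myotubes and 0, 51 and 53 in myoblasts (-2.10 ± 1.31). The Igf2 promoter, an imprinted growth factor gene, had 4, 0 and 20 reads, against 1, 43 and 39 (-1.77 ± 1.52). In both, culture 21 has almost no reads. Without culture 27 the changes were -0.97 for Cdkn1a and -0.68 for Igf2, and without culture 21 they were -2.93 and -3.27. Of the methylation enzymes, an intron fragment of Dnmt3a stood at 21, 23.3 and 24.6 CPM in day 2 myotubes and 29.0, 11.8 and 30.2 in myoblasts (0.06 ± 0.41). One of Tet1 stood at 45.1, 28.1 and 45.6, against 46.0, 27.8 and 32.9 (0.15 ± 0.31).

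Gene lists of the muscle programme held no called fragment, and apart from the cell cycle exit list their medians lay between -0.271 and -0.0522. Of 51 tested fragments of myogenic regulators, 5 were higher and 7 lower in all 3 cultures (median log2 change -0.0522). Of 58 of sarcomere and contraction genes, 5 were higher and 12 lower (-0.173), and of 21 of excitation and muscle metabolism genes, 2 and 3 (-0.271). Of 39 fragments of myoblast fusion genes, 7 were higher and 9 lower (-0.221). Of 24 of cell cycle exit genes, 3 were higher and 6 lower (-0.534), with medians of -0.172, -0.403 and -0.727 in cultures 21, 27 and 26. Their median GC content was 53.4%, and 7 of them are islands. All counts stand beside 3135 higher and 2135 lower of 15113 and a median of 0.0256 over all fragments tested.

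Signalling lists were mixed. Notch and Wnt genes had 4 of 49 fragments higher and 10 lower in all 3 cultures (median -0.237), and IGF and TGF-beta genes 11 of 53 higher and 6 lower (-0.0156). HOX genes, which keep positional identity, had 3 of 14 higher and 0 lower, with medians of -0.0396, 0.703 and -0.565 in cultures 21, 27 and 26. Imprinted genes had 4 of 22 higher and 2 lower (0.148). DNA methylation enzymes had 1 of 8 higher and 1 lower (0.0787). These counts stand beside 20.7% higher and 14.1% lower in all 3 cultures over all fragments tested.

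Pluripotency and germ line genes, many of which are methylated in somatic cells, had the highest median. Of 34 tested fragments 12 were higher in all 3 cultures and 1 lower (median 0.362), with medians of 0.0740, 0.867 and 0.323 in cultures 21, 27 and 26. Their median GC content was 47.6%, the lowest of the 15 lists. Over all fragments tested, 20.7% were higher in all 3 cultures and 14.1% lower. Markers of other cells that a muscle culture can hold had medians of -0.0747 (fibroblasts, 36 fragments), -0.180 (adipocytes, 24), -0.0849 (blood and endothelium, 45) and 0.0996 (neural and Schwann cells, 60). These are methylation counts, so they do not measure how many such cells were present.

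**Figure D5:**
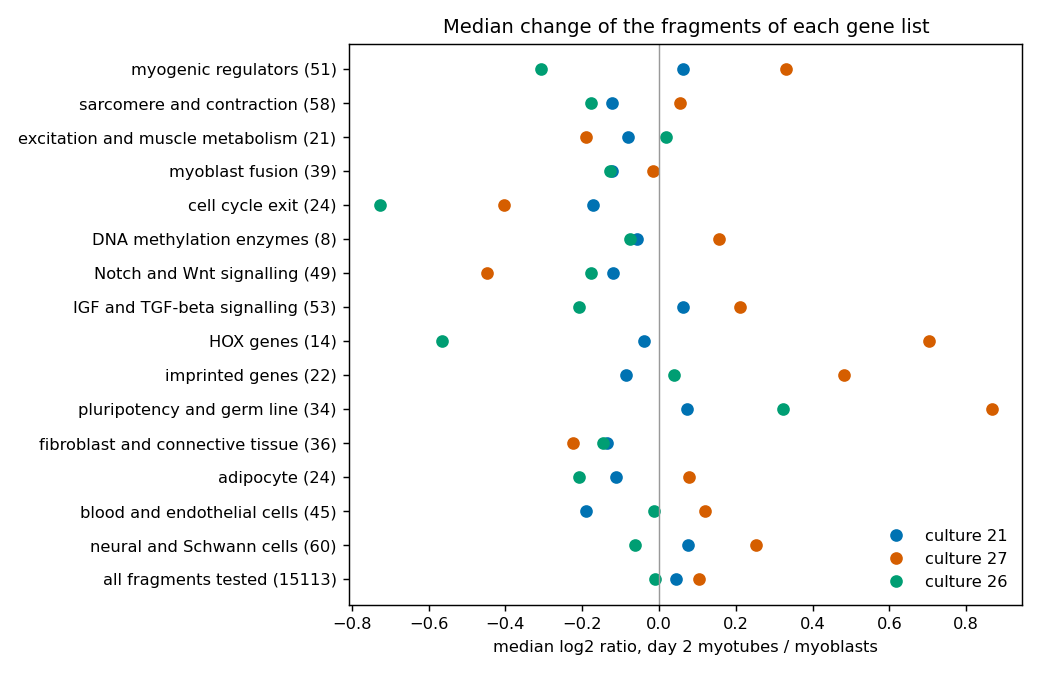
Median log2 ratio of day 2 myotubes to myoblasts (horizontal axis) over the tested fragments of each gene list, 1 point per culture, with the number of fragments in brackets. Cultures differ within most lists, as for HOX genes (-0.0396, 0.703 and -0.565), and the pluripotency and germ line list has all 3 points above 0.

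The stages on either side were tested the same way with the same myoblasts or with day 2. Day 1 myotubes against myoblasts gave 0 of 15320 higher (0.0%) and 0 lower (0.0%), with 46 at an unadjusted p under 0.05 by edgeR and 0 called by DESeq2. Day 4 myotubes against myoblasts gave 3 of 15663 higher (0.0192%) and 0 lower (0.0%), and 0 were called without culture 27 or without culture 26, while 296 were called higher without culture 21. Day 2 against day 1 gave 0 of 14908 in either direction (0.0% each), with 465 at an unadjusted p under 0.05, of which 420 were lower at day 2. Day 4 against day 2 gave 0 of 15522 in either direction (0.0% each), with 26 at an unadjusted p under 0.05. DESeq2 called 0 in both. These comparisons share libraries with the one of day 2 against myoblasts and are no separate evidence for it.

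The GC shift of day 2 had no counterpart at day 1 in cultures 21 and 27, while culture 26 moved the same way at day 1 by less. Fragments of 40 to 45% GC took 15.8%, 15.6%, 18.8% and 19.2% of reads at the myoblast stage, day 1, day 2 and day 4 in culture 21. They took 17.7%, 15.4%, 20.3% and 15.0% in culture 27, and 13.2%, 14.3%, 17.7% and 14.3% in culture 26. Day 2 is the highest stage in cultures 27 and 26, and in culture 21 day 4 is higher still. Island reads of culture 26 were 0.703% at day 1 and 0.671% at day 2, below the 1.23% of its myoblasts. Island reads of culture 27 were 4.27% at day 1 and 4.40% at day 4, above the 1.40% of its myoblasts, and at day 2 they were 1.14%. The order of the stages thus differed between cultures.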

How the data were processed

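The authors deposited raw read counts per fragment and library, and the analysis starts from these counts. Sequencing used an Illumina GA2 with reads mapped to mm9, per the labels' protocols, and Bowtie 0.11.3 and DESeq (without a version) are named in the submitters' processing notes. No read filter is given in the sources used here. Other deposited tables were not used, and 184 of their columns hold per-sample values.

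The fragments, lists and tests were chosen with earlier results of these data known. Genes came from GENCODE M1 on mm9 (NCBIM37), and 100% of fragment ends lay at a CCCGGG site of that sequence. Islands and repeats are those of the deposited table. A fragment belongs to a gene if it overlaps its body or the 2000 bp upstream.

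The main test was the quasi-likelihood test of edgeR 4.0.16 on TMM-scaled counts, after filterByExpr (minimum count 10). P-values are 2-sided and Benjamini-Hochberg adjusted over all fragments tested, with a threshold of 0.05. The model held the culture number in the titles as a block, which left 2 residual degrees of freedom per fragment. In the titles, 1 number marks the libraries of 1 culture. Deviations from the stage means correlated within cultures 21, 27 and 26 at 0.695, 0.454 and 0.791. The block takes the level of each culture out of the test. Its p-values set the change between stages against how much that change varied over the 3 cultures, with a spread partly borrowed from other fragments. Log2 ratios per culture used a prior count of 2. Named fragments are the smallest p of each of 22 genes and, as fewer than 10 fragments were called, the 6 smallest p per direction among those moving one way in all cultures; 1 of the 22 genes is not reported here. The fixed rule for printing a sequence, a length of 100 to 300 bp, was met by Mcf2l alone; the other sequences were added. The fit was also run on simulated counts that gave all fragments and cultures the same dispersion. That run does not show how many changes the test could miss in these libraries. Depth per library was 7683633 to 14515828 reads, and PCR reads carry no molecular identifiers. DESeq2 1.42.0, other scalings, filters, fragment sets, a length correction and leaving out each culture were the alternatives; the correction for length and GC (loess span 0.3) was added after seeing the data. The work ran in R 4.3.3, limma 3.58.1, Python 3.11.15 (scipy 1.17.1, pandas 2.3.3, matplotlib 3.10.9, numpy 2.4.6).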

Additional observations from a re-analysis of the deposited data

How the results depend on the processing

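Calls between day 2 myotubes and myoblasts were 0 in each direction with and without the replicate block (15 at an unadjusted p under 0.05 without it, against 745 with it), with DESeq2, both other scalings, a minimum count of 50, 12 libraries in one fit, all lengths, no repeats, and the corrections for length or for length and GC. They were 2 lower without a filter, and 0 to 12 in each direction when a culture was left out, the 12 coming without replicate 2 (culture 27). Leaving out a culture gave 0 to 1 higher and 0 to 1 lower at day 1, and 0 to 296 higher and 0 to 1 lower at day 4. It gave 0 to 14 higher and 0 to 2 lower for day 2 against day 1. Day 4 against myoblasts gave 0 higher without the replicate block and 10 with DESeq2. The cause of these differences was not tested. Read shares kept their direction apart from fragments of 300 to under 500 bp (-1.11 to 2.08 points, 0.434 with all cultures) and of 1000 to under 2000 bp (-2.90 to 1.25, -1.04 with all). Fragments with 5 or more reads differed by -2057 to 7 when a culture was left out, against -1272 with all.

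Of the named fragments, some log2 changes near 0 turned round. Myf5 was -0.18 with library totals, -0.04 at a minimum count of 50, -0.17 with 12 libraries, -0.56 without culture 27 and -0.10 there with the length and GC correction. Pax3 was -0.08 with totals, -0.09 with the length and GC correction, -0.40 without culture 26, and -0.02 and -0.31 with that correction without cultures 21 and 26. Pax7 was -0.08 with totals, -0.06 with the length correction and -0.07 without culture 27. Des was -0.05 with totals, -0.16 without culture 27, and -0.04 and -0.02 with the length and GC correction without cultures 21 and 27. Dnmt3a was -0.05 without the block, -0.17 with totals, -0.04 at a minimum count of 50, -0.02 with all lengths, -0.37 without culture 27 and -0.13 there with the correction. Tet1 was -0.09 with totals and -0.17 without culture 26. Ckm was 0.28 with the correction without culture 21, and Yme1l1 -0.03 with it without culture 26. Without culture 27, 6 named fragments passed the threshold. Leaving out each culture gave Myf5 -0.56 to 0.30, Pax3 -0.40 to 0.50, Pax7 -0.07 to 0.13, Des -0.16 to 0.38, Dnmt3a -0.37 to 0.17 and Tet1 -0.17 to 0.23. Library totals moved the median of all fragments to -0.21. Few reads limit single island fragments of culture 21, which had the fewest of them at equal depth.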
